A study of Mus musculus with 5 samples.

Results

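The cytosolic ribosomal protein genes encode the protein parts of the ribosome that works in the cytoplasm. They were taken here as the probe sets with exactly 1 gene symbol that is Rpl or Rps followed by a number and at most one letter a, x or y, or Rplp0, Rplp1, Rplp2 or Rpsa, without S6 kinase genes and pseudogenes. This gave 42 genes with 94 probe sets, of 18193 genes on the array. A gene table of assembly GRCm38.p6 holds 76 genes with such symbols, and 34 of them had no probe set that met the rule, Rplp1 among them. The level of a gene was read from whichever of its probe sets had the highest mean, and 41 of the 42 genes lay among the 10916 genes of highest level that were tested.

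Total RNA of pooled mouse retinas was measured on 5 Affymetrix arrays. Both diabetic replicates 1 and 2 pooled 4 retinas, from 2 mice kept diabetic for 5 weeks by streptozotocin, which kills pancreatic beta cells. Diabetic replicate 3 pooled 6 retinas from 3 animals whose experimentally induced diabetes had lasted 3 to 4 weeks, and its label does not name the agent. The control replicates, 1 and 2, pooled 4 retinas from 2 mice each, untreated, age-matched and normal in blood glucose. Age, strain and sex are not given in the labels used here. A p-value compares pools, since no value of a single mouse was measured, and in whole retina fewer cells of a type and less RNA per cell cannot be told apart.

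A ribosome has a small subunit, which reads the mRNA, and a large subunit, which joins the amino acids. Most of its proteins are present as single copies in each ribosome, and their mRNAs are among the most abundant of nearly every cell, including photoreceptors, which renew their outer segments through life. Most of these mRNAs start with a run of C and T bases, the terminal oligopyrimidine tract, through which growth signals by way of the mTOR kinase set how strongly they are translated. An array measures the amount of such an mRNA and not its translation.

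A run of C and T bases can be seen at or near the annotated start of several of the genes described below. Whether such a run begins the mRNA, as the terminal tract does, was not tested. RefSeq promoter windows were found for 37 of the 42 genes. The sequences below give 10 bases before to 20 bases from the annotated start, 5′ to 3′ on the strand of the gene, in build GRCm38.p6. Capitals mark a run of 8 or more C or T bases. The first 6 have such a run, and the last 2, of genes named for their differences or their place in the ribosomal stalk, have none.
Rps10, chr17:27635225-27635254, minus strand: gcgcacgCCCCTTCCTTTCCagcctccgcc
Rpl39, chrX:37085203-37085232, minus strand: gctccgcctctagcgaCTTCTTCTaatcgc
Rps27, chr3:90213629-90213658, minus strand: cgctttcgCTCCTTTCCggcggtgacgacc
Rps6, chr4:86857348-86857377, minus strand: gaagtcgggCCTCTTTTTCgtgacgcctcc
Rplp2, chr7:141447641-141447670, plus strand: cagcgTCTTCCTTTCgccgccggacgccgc
Rpl14, chr9:120571507-120571536, plus strand: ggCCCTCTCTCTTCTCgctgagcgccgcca
Rpsa, chr9:120127756-120127785, plus strand: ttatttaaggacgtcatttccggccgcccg
Rplp0, chr5:115559457-115559486, plus strand: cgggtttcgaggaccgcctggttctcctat

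Such a run on the strand of the gene overlapped this 30-base window in 20 of the 37 genes (54.1%), against 19.2% of 27025 genes with an entry. The letters CCGGAAG, the core bound by ETS factors, stood on either strand of the 300-base window in 18 of the 37 genes (48.6%), against 9.93% of all genes. The letters AAGATGG, the core bound by YY1, stood there in 7 genes (18.9%), against 7.28% of all. The ETS core overlapped the run in 0 of these genes. A match describes the letters only, and starts used in retina can lie elsewhere.

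Read from the probe set of highest mean, mRNA levels of most ribosomal protein genes differed little between the diabetic and control pools. Dimmer probe sets of some genes, given below, differed more. Values were compared as log2(signal + 120.6) with limma across all tested genes, and p-values were adjusted by the Benjamini-Hochberg method. None of the 41 tested genes passed an adjusted p of 0.05, and each had an adjusted p of 0.999. Over all tested genes 0 of 10916 passed (0%), and 370 (3.39%) had an unadjusted p under 0.05, with 1.8% higher and 1.59% lower in diabetic pools. Of the 41 genes, 0 had such a p. There were 20 genes with a higher mean and 21 with a lower mean in diabetic pools. The median difference, diabetic minus control, was -0.0011 on the log2 scale, against 0.0060 over all tested genes. Of all tested genes, 51.9% had a higher mean in diabetic pools.

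The sizes of the differences were small as well. The absolute difference was under 0.1 log2 unit in 33 of the 41 genes (80.5%), against 58.2% of all tested genes. It was smaller than its standard error in 34 genes (82.9%), against 69.3% of all. Genes of high level differed less in general. In the upper 10% by level, the median absolute difference was 0.054 over 1820 tested genes and 0.036 over the 33 ribosomal protein genes there. Over all tested genes it was 0.081. The differences of the 41 genes ran from -0.26 for Rpl39 to 0.14 for Rpsa. The 95% interval of the difference lay within 0.5 log2 unit of 0 on both sides for 35 of the 41 genes. The lowest bound was -0.88, for Rps27, and the highest 0.69, for Rps6, so the differences of these 2 genes were the least precisely measured.

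**Figure D1:**
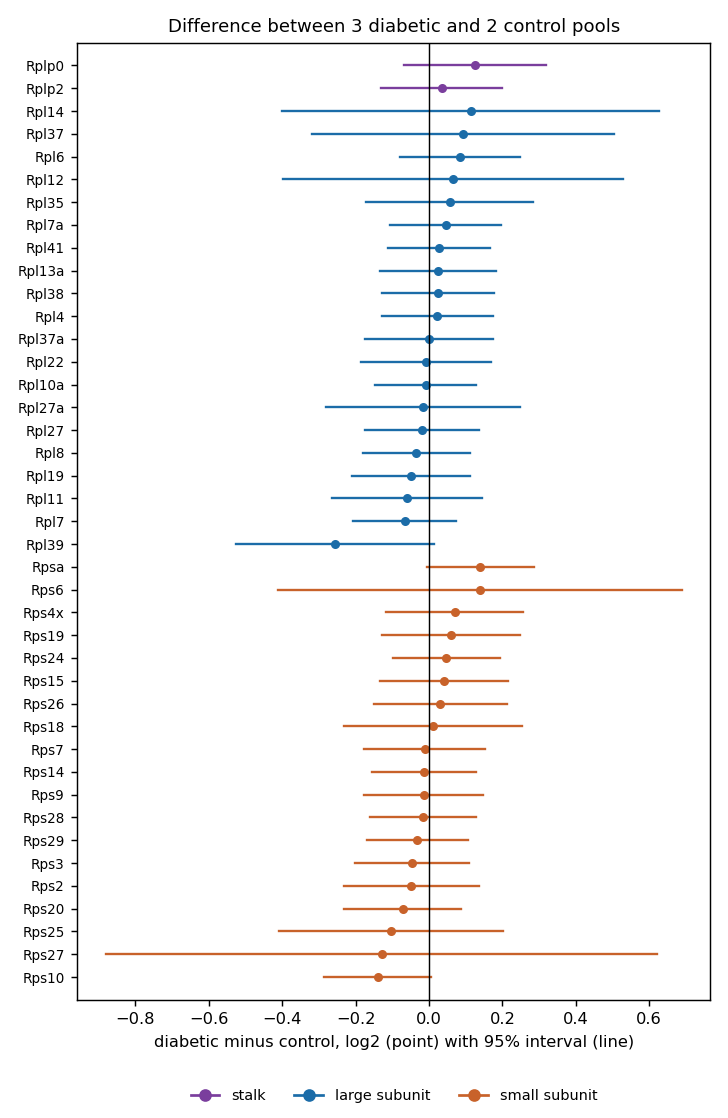
Difference between the 3 diabetic and the 2 control pools for each of the 41 tested genes, on the log2 scale (horizontal axis); points are differences, lines 95% intervals from limma, and colours mark the stalk, the large and the small subunit. All intervals include 0, and the widest belong to Rps27, Rps6, Rpl14, Rpl12 and Rpl37.

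The stalk of the large subunit recruits the elongation factors, and 2 of its genes were measured. Rplp0, which anchors the stalk to the ribosome, was at 14.87, 14.83 and 14.88 in diabetic pools, against 14.85 and 14.62 in control pools, on the log2 scale. The 3 diabetic pools and control replicate 1 lay close together, and only control replicate 2 was lower, so the groups overlapped. The difference of 0.12 (SE 0.085, unadjusted p = 0.18 with limma) came to 0.0070 without control replicate 2. Rplp2, one of the acidic proteins that Rplp0 carries, was at 15.81, 15.99 and 15.89 in diabetic pools, against 15.90 and 15.83 in control pools. Its groups overlapped as well, and the difference was 0.034 (SE 0.072).

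Among the 20 other genes of the large subunit, 10 had a higher and 10 a lower mean in diabetic pools, with a median difference of 0.011. The largest difference was that of Rpl39, a small protein that lines the tunnel through which the new peptide leaves. Its log2 level was 11.28, 11.46 and 11.44 in diabetic pools, against 11.65 and 11.65 in control pools. All 3 diabetic pools lay below both control pools. The difference was -0.26 (SE 0.12, 95% interval -0.53 to 0.012, unadjusted p = 0.059, adjusted p = 0.999 with limma). On the deposited linear scale the signals were 2364, 2702 and 2665 in diabetic pools and 3095 and 3101 in control pools. Leaving out any one array gave differences from -0.29 to -0.20.

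Rpl7, an RNA-binding protein of the large subunit, was the other gene of this group whose pools did not overlap. It was at 15.78, 15.78 and 15.82 in diabetic pools, against 15.88 and 15.84 in control pools. The gap between the highest diabetic and the lowest control pool was narrow, and the difference was -0.066 (SE 0.061, unadjusted p = 0.31 with limma).

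Rpl6, another large subunit protein, was at 15.12, 15.25 and 15.24 in diabetic pools, against 15.11 and 15.14 in control pools. Diabetic replicates 2 and 3 lay above both controls and replicate 1 between them, with a difference of 0.084 (SE 0.072). Rpl11, which with 5S ribosomal RNA can bind and restrain the p53 ligase Mdm2, was at 15.03, 15.25 and 15.23 in diabetic pools, against 15.16 and 15.31 in control pools. The 2 groups overlapped, and the difference was -0.060 (SE 0.090).

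Several genes of the large subunit hardly differed between any of the 5 pools. Rpl8, which lies near the site of peptide bond formation, was at 15.37, 15.33 and 15.33 in diabetic pools, against 15.36 and 15.40 in control pools, a whole range of 1.05-fold. Rpl10a spanned 1.05-fold as well, between 15.94 and 15.95 in diabetic pools and 15.92 and 15.99 in control pools. Rpl41, the shortest protein of the ribosome, was at 15.83, 15.88 and 15.85 in diabetic pools, against 15.80 and 15.85 in control pools. For Rpl4, whose long extension reaches the exit tunnel, the difference was 0.023 (SE 0.066). For Rpl38, which in mouse is needed for the translation of Hox mRNAs, it was 0.024 (SE 0.067).

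**Figure D2:**
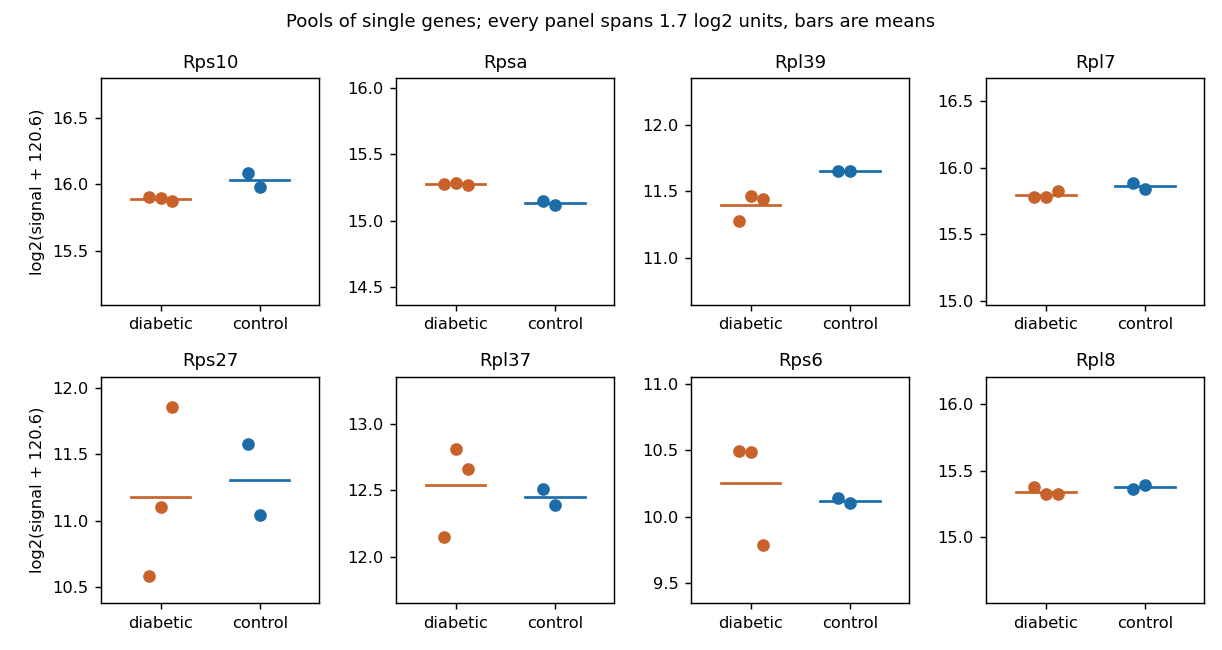
Log2 level of 8 genes in each pool (vertical axis, log2(signal + 120.6)), diabetic pools left and control pools right, with bars at the group means; every panel spans 1.7 log2 units. The groups of Rps10, Rpsa, Rpl39 and Rpl7 do not overlap, while the pools of Rps27, Rpl37 and Rps6 are spread widely and those of Rpl8 lie within 1.05-fold.

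In the small subunit 19 of 20 genes were tested, of which 8 had a higher and 11 a lower mean in diabetic pools, with a median difference of -0.014. Rps10, which lies near the mRNA entry and is mutated in human Diamond-Blackfan anaemia, was at 15.90, 15.90 and 15.87 in diabetic pools, against 16.08 and 15.98 in control pools. The diabetic pools lay close together and below both controls. The linear signals were 61188, 60879 and 59911 in diabetic pools and 69337 and 64467 in control pools. The difference was -0.14 (SE 0.063, 95% interval -0.29 to 0.0048, unadjusted p = 0.056, adjusted p = 0.999 with limma), and it ran from -0.19 to -0.088, without control replicate 1, with any one array left out. The mean over its 6 probe sets gave -0.067.

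Rpsa, a small subunit protein also known as a laminin receptor, had the opposite order. It was at 15.27, 15.28 and 15.27 in diabetic pools, against 15.15 and 15.12 in control pools. All 3 diabetic pools lay above both control pools, with nearly the same value in each. The difference was 0.14 (SE 0.063, 95% interval -0.0050 to 0.29, unadjusted p = 0.057, adjusted p = 0.999 with limma), and it ran from 0.12 to 0.16 with any one array left out.

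Rps10, Rpl39, Rpl7 and Rpsa were the 4 of 41 genes (9.76%) whose diabetic and control pools did not overlap. Over all tested genes the share was 18.1%, with 9.99% higher and 8.15% lower in diabetic pools. Of the 4 genes, 1 was higher and 3 were lower in diabetic pools, too few to read a direction from, and the shares were not tested against each other.

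A further 3 small subunit genes had overlapping groups. For Rps3, which also has a role in DNA repair, the diabetic pools were at 15.272, 15.367 and 15.389, against 15.382 and 15.395 in control pools, a difference of -0.046 (SE 0.068). For Rps4x, the X-linked gene of a small subunit protein, they were at 15.87, 15.79 and 15.89, against 15.90 and 15.67 in control pools, a difference of 0.069 (SE 0.082). In both genes a control pool was the highest, in Rps3 only just above diabetic replicate 3. Rps19, the first gene found mutated in human Diamond-Blackfan anaemia, was at 14.46, 14.66 and 14.50 in diabetic pools, against 14.47 and 14.49 in control pools. Only diabetic replicate 2 stood apart from the other pools, and the difference was 0.060 (SE 0.083).

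The other genes named by rank or spread also had overlapping groups. In the small subunit the difference was -0.10 (SE 0.13) for Rps25, -0.072 (SE 0.070) for Rps20, -0.032 (SE 0.060) for Rps29 and 0.047 (SE 0.064) for Rps24. In the large subunit it was -0.049 (SE 0.070) for Rpl19 and 0.046 (SE 0.066) for Rpl7a. Each of these except Rps20 was smaller than its standard error.

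Of 15 ribosomal protein genes listed for that anaemia, 10 were tested. The mean was higher in diabetic pools for 3 and lower for 7, with a median difference of -0.018. Groups did not overlap in 1 gene, Rps10 (10%), against 18.1% of all tested genes. None of the 10 passed the test.

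Rps16, which lies near the decoding site, was the only one of the 42 genes below the level filter. Its single probe set of 1 symbol had signals of 6.0, 3.7 and 6.7 in diabetic pools, against 9.0 and 4.8 in control pools. These are near the bottom of the scale, and no difference was computed from them.

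Spread between the pools was narrow for most of the genes. The residual SD, the spread of pools around their group means on the log2 scale, had a median of 0.076, against 0.129 over all tested genes. It lay below that all-gene median in 34 of the 41 genes. The highest of the 5 pools stood a median of 1.13-fold above the lowest, against 1.25-fold over all tested genes. The whole range was under 1.1-fold in 13 genes (31.7%), against 7.77% of all tested genes, and under 1.3-fold in 36 of the 41.

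Level on the array went with this spread. Of the 41 genes, 33 lay in the upper 10% of genes by level, against 16.7% of all tested genes. Residual SD in these 33 genes had a median of 0.064 and a maximum of 0.16, and over all 1820 genes of that level it had a median of 0.088. In the 8 genes below that level it ran from 0.083 to 0.56, with a median of 0.27. Signals of the 33 genes ran from 22388 to 125109, and compression of bright signals by the array was not tested.

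**Figure D3:**
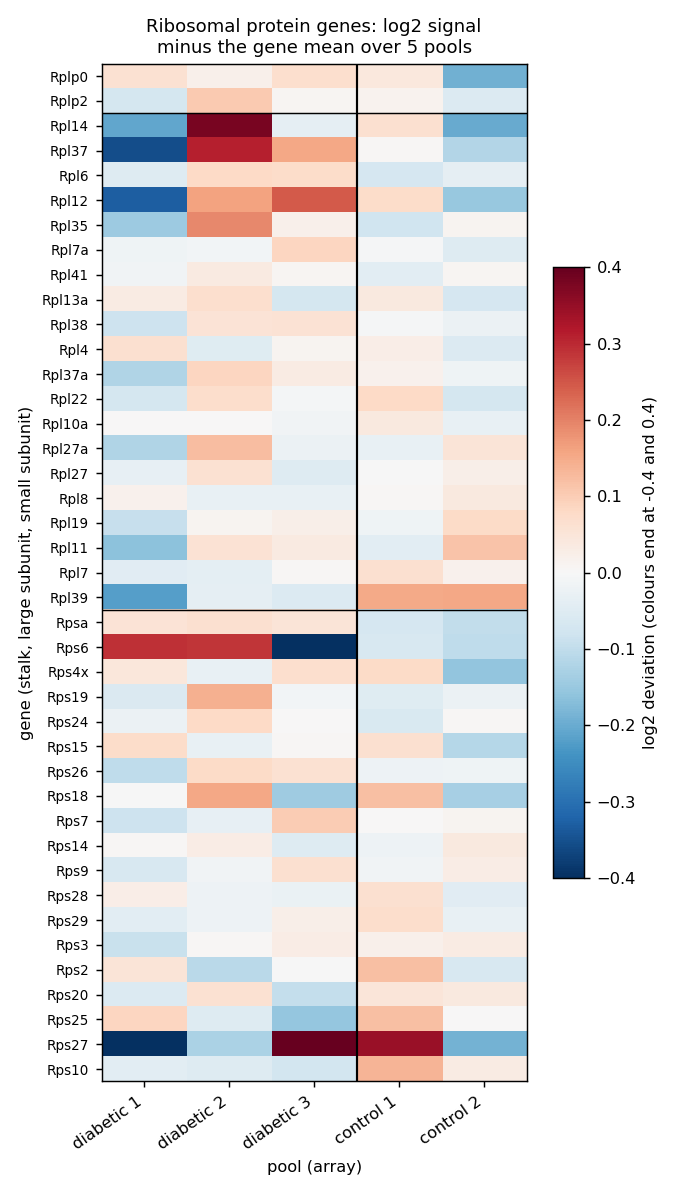
Deviation of each pool from the mean of its gene (colour, log2 units, limited to 0.4 either way) for the 41 tested genes in rows and the pools in columns, diabetic left of control. Most cells are pale, Rps27 and a few other genes carry the deep colours, and diabetic replicate 1 is the lowest pool in 20 rows.

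The widest spread belonged to Rps27, a zinc-binding protein of the small subunit. It was at 10.58, 11.10 and 11.85 in diabetic pools, against 11.57 and 11.04 in control pools. Diabetic replicate 3 was the highest pool and diabetic replicate 1 the lowest, with both controls between them, and the range was 2.41-fold. The difference was -0.13 (SE 0.33) with a residual SD of 0.56. Rps27 was read from 1 probe set with signals from 1411 to 3573. It lay below the upper 10% of genes by level, as did Rps6, Rpl37, Rpl14 and Rpl12, described next.

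Rps6, the small subunit protein that S6 kinases phosphorylate downstream of mTOR, was at 10.50, 10.49 and 9.79 in diabetic pools, against 10.14 and 10.10 in control pools. Diabetic replicates 1 and 2 were the highest and replicate 3 the lowest, a range of 1.63-fold. The difference was 0.14 (SE 0.24). Leaving out diabetic replicate 1 gave 0.019, leaving out replicate 2 gave 0.023, and leaving out replicate 3 gave 0.37. Skeletal muscle markers were high in diabetic replicate 3 and in control replicate 2, and without both these arrays the difference was 0.35.

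Rpl37, a zinc-binding protein of the large subunit, was at 12.15, 12.81 and 12.66 in diabetic pools, against 12.51 and 12.39 in control pools. Rpl14, another large subunit protein, was at 9.79, 10.38 and 9.96, against 10.06 and 9.80 in control pools. Rpl12, which binds at the base of the stalk, was at 10.28, 10.78 and 10.86, against 10.69 and 10.46 in control pools. In all 3 genes diabetic replicate 1 was the lowest pool, the groups overlapped, and the residual SD was 0.29, 0.27 and 0.27 in the order given.

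The pools differed more from each other than the groups did. Diabetic replicate 1 was the lowest of the 5 pools in 20 of the 41 genes (48.8%), against 24.3% of all tested genes. Diabetic replicate 2 was the highest in 16 genes (39.0%), against 32.8% of all tested genes. Diabetic replicate 1 lay below diabetic replicate 2 in 31 of 41 genes (75.6%), against 56.8% of all. The median gap between them, replicate 2 minus replicate 1, was 0.095 log2 unit in the ribosomal protein genes and 0.041 over all tested genes.

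Median deviations from the gene mean were -0.044, 0.036 and 0.0064 in diabetic replicates 1, 2 and 3, against 0.019 and -0.024 in control replicates 1 and 2. The same medians over all tested genes were -0.0076, 0.033 and -0.0099 in diabetic pools and -0.0037 and -0.0036 in control pools. Over the tested genes of the upper 10% by level they were -0.017, 0.052 and -0.0068 in diabetic pools and -0.0034 and -0.021 in control pools. Genes of high level thus also stood high in diabetic replicate 2. The mean of the array medians of the ribosomal protein genes was -0.00068 ± 0.041 (SD, n = 3) over the diabetic pools. Over the control pools it was -0.0027 ± 0.030 (SD, n = 2). This difference of 0.0020 gave p = 1 in an exact two-sided permutation test over the 10 splits of the arrays. The smallest possible p is 0.1 with so few splits, so this test cannot decide whether the groups differ. No conclusion about a shift between the groups is drawn from it.

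The gap between both streptozotocin pools was wider in the large subunit. Diabetic replicate 1 lay below replicate 2 in 18 of 20 large subunit genes and in 12 of 19 small subunit genes. The large subunit had median deviations of -0.077, 0.060 and 0.0097 in diabetic pools, against 0.0048 and -0.021 in control pools. The small subunit had -0.024, -0.015 and 0.0022 in diabetic pools, against 0.049 and -0.024 in control pools. The difference between subunits was not tested.

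Array quality values moved with diabetic replicate 2. Its 3′ to 5′ signal ratio of the beta-actin control probe sets was 4.32, against 2.01 and 2.43 in the other diabetic pools and 2.52 and 2.71 in control pools. The corresponding Gapdh ratio was 0.901 in that pool, against 0.784 and 0.838 in the other diabetic and 0.822 and 0.811 in control pools. Their part in the high place of this pool was not tested. The scaling also mattered for it. After quantile normalization diabetic replicate 2 was the highest pool in 12 of 41 genes and diabetic replicate 1 the lowest in 17. After centring each array on its median, diabetic replicate 2 was the highest in 35 and diabetic replicate 1 the lowest in 19. The median deviation of diabetic replicate 2 was then 0.137 in the ribosomal protein genes and 0.134 over all tested genes. The high place after centring was thus shared by the genes in general.

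Centring also moved the count of directions. It gave 31 of 41 genes a higher mean in diabetic pools, with a median difference of 0.042, and a median of 0.049 over all tested genes. Centring moves the difference of every gene by the same amount, so it turned the sign of small negative differences.

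**Figure D4:**
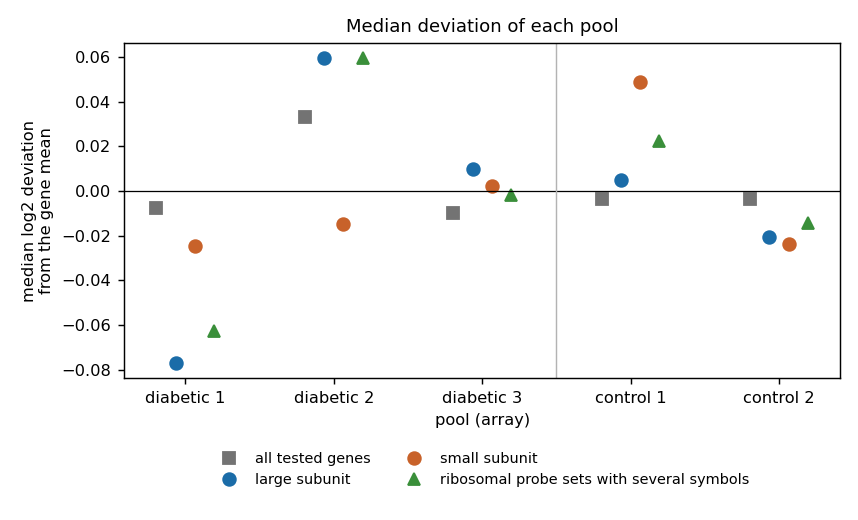
Median log2 deviation from the gene mean in each pool (vertical axis), diabetic pools left and control pools right, for large subunit genes, small subunit genes, ribosomal probe sets with several symbols and all tested genes. Diabetic replicate 1 is low and diabetic replicate 2 high for the large subunit and the probe sets with several symbols, while the small subunit is highest in control replicate 1.

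Many ribosomal protein genes have processed pseudogenes and several probe sets, so the probe sets of a gene were set side by side. Of the 94 probe sets, 38 have a name ending in _x_at, which marks probes that can bind other transcripts, and 3 end in _s_at, which marks probes shared by several genes. Of the 42 chosen probe sets, 13 and 2 had these endings. There were 81 probe sets above the level filter, of which 38 had a higher mean in diabetic pools, with a median difference of -0.0078. Groups did not overlap in 7 of the 81, 6 lower and 1 higher in diabetic pools, against 18.1% of all tested genes. Rps10 accounts for 2 of the 6.

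More than 1 probe set passed the filter in 18 genes, and all pointed the same way in 8 of these. All 6 probe sets of Rps10 were lower in diabetic pools, by differences from -0.14 to -0.017, and the groups did not overlap in 2 of them. All 5 probe sets of Rpl35 that passed were higher in diabetic pools, by differences from 0.0017 to 0.069. Rpl35 was picked here after its values were seen. The second probe set of Rpsa was below the filter, at 7.76, 7.91 and 7.20 in diabetic pools and 7.03 and 7.21 in control pools, and the mean over both probe sets gave a difference of 0.32.

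Rpl22, an RNA-binding protein of the large subunit, had the widest disagreement. Its brightest probe set, which ends in _s_at, was at 15.27, 15.41 and 15.34 in diabetic pools, against 15.42 and 15.27 in control pools, a difference of -0.0078. The other _s_at probe set gave 0.078. The third and dimmest carries no such ending and was at 13.07, 12.87 and 13.08 in diabetic pools, against 13.51 and 13.56 in control pools. All diabetic pools lay below both controls there, by a difference of -0.53. With probe sets ending in _s_at and _x_at left out where a gene had another, this value entered the limma test with an adjusted p of 0.809.

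Rpl13a, which in human cells also joins a complex that silences inflammatory mRNAs, disagreed in a similar way. Its brightest probe set was at 16.28, 16.31 and 16.18 in diabetic pools, against 16.29 and 16.18 in control pools, and the groups overlapped. Its dimmest was at 13.27, 13.49 and 13.58 in diabetic pools, against 13.67 and 13.90 in control pools. There all diabetic pools lay below both controls, with a difference of -0.34.

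Rpl37a and Rps9, picked after their values were seen, also had probe sets that differed by more than 0.1 log2 unit from the chosen ones. In Rpl37a the dimmest probe set gave -0.49, against -0.0011 for the chosen one. In Rps9 the dimmest probe set gave 0.33, against -0.015 for the chosen one. Both dimmer probe sets had overlapping groups.

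A further 110 probe sets list a ribosomal protein gene together with other symbols and were not counted as members. Of these, 99 were above the filter, and 39 had a higher mean in diabetic pools. Their median difference was -0.0083, with a range from -0.43 to 0.25, and the groups did not overlap in 7 of the 99, against 18.1% of all tested genes. Median deviations were -0.063, 0.059 and -0.0017 in diabetic pools, against 0.022 and -0.014 in control pools, so diabetic replicate 1 was the lowest and diabetic replicate 2 the highest pool here too.

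**Figure D5:**
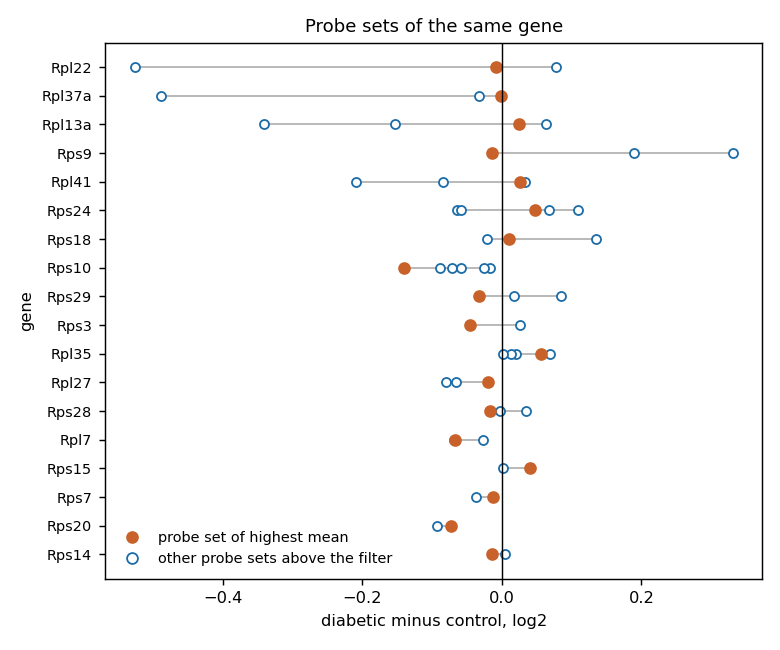
Diabetic minus control difference (log2) of every probe set above the filter for the genes with more than 1, each gene on its own line, with the chosen probe set marked. Rpl22, Rpl37a, Rpl13a and Rps9 hold the widest differences between probe sets, and the chosen probe sets lie near 0.

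Genes with and without the pyrimidine run at or near the annotated start were described separately. The 20 tested genes with a run had a median difference of 0.017, with 11 higher in diabetic pools, a median residual SD of 0.078 and 2 genes without overlap. The 16 tested genes without one had a median of 0.034, with 9 higher, a median residual SD of 0.084 and 1 gene without overlap. Over all tested genes the share without overlap was 18.1%, and both counts are too small to compare with it. The 5 genes with no promoter entry, Rpl7, Rpl8, Rps14, Rps20 and Rps29, are in neither set, and all 5 had a lower mean in diabetic pools. Rps10 and Rpl39 belong to the first set and Rpsa to the second, as the printed starts show.

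Genes that work with the ribosome gave a background for these values. Fau, whose product is a ubiquitin-like protein fused to a small subunit protein, differed by -0.022 (SE 0.065), and Rps3a1, another small subunit gene outside the naming rule, by 0.025 (SE 0.065). Of 9 listed paralogs of ribosomal protein genes, 4 were tested, 2 with a higher and 2 with a lower mean in diabetic pools. Groups did not overlap in 1 of the 4 (25%), against 18.1% of all tested genes. Rpl22l1, the paralog of Rpl22, was at 14.18, 14.32 and 14.41 in diabetic pools, against 14.59 and 14.44 in control pools.

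All 3 diabetic pools of Rpl22l1 lay below both controls, with a difference of -0.21 (SE 0.092, unadjusted p = 0.049, adjusted p = 0.999 with limma), which came to -0.14 without control replicate 1. Rps4l, a paralog of Rps4x that the gene table lists as a transcribed pseudogene, was at 12.16, 12.19 and 11.41 in diabetic pools, against 12.06 and 12.01 in control pools. Only diabetic replicate 3 was low, and the groups overlapped.

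Elongation factors and related genes known for tracts at their mRNA starts numbered 11 tested of 12, with 4 higher and 7 lower in diabetic pools and a median difference of -0.016. Groups did not overlap in 2 of the 11 (18.2%), 1 higher and 1 lower in diabetic pools, against 18.1% of all tested genes. Eif5a2, a paralog of the factor that helps ribosomes through hard-to-join residues, was at 11.79, 11.82 and 11.71 in diabetic pools, against 11.47 and 11.51 in control pools. All diabetic pools lay above both controls, with a difference of 0.28 (SE 0.11, unadjusted p = 0.031, adjusted p = 0.999 with limma), which came to 0.17 with the mean over its probe sets. Eef2, the translocase, was at 15.58, 15.62 and 15.61 in diabetic pools, against 15.66 and 15.68 in control pools, a difference of -0.063 (SE 0.062).

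Initiation factors numbered 30 tested of 35, with 13 higher and 17 lower in diabetic pools and a median difference of -0.015. The 2 of smallest p were Eif3c, a subunit of the scaffold on the small subunit, at 0.17 (SE 0.097), and Eif2s2, a subunit of the initiator tRNA carrier, at 0.20 (SE 0.13). In both the groups overlapped. Over the whole list the groups did not overlap in 4 of the 30 (13.3%), 3 higher and 1 lower in diabetic pools, against 18.1% of all tested genes. Single arrays left out gave Eif3c from 0.030, without control replicate 2, to 0.30, without control replicate 1. They gave Eif2s2 from 0.072, without diabetic replicate 3, to 0.31, without diabetic replicate 2.

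Genes of ribosome assembly numbered 48 tested of 49, with 21 higher and 27 lower in diabetic pools and a median difference of -0.026. Groups did not overlap in 12 of them (25%), 6 higher and 6 lower in diabetic pools, against 18.1% of all tested genes. Polr1c, a subunit shared by RNA polymerases I and III, was at 12.33, 11.94 and 12.13 in diabetic pools, against 12.37 and 12.50 in control pools, a difference of -0.30 (SE 0.13). Nip7, a factor of large subunit assembly, was at 11.52, 11.65 and 11.62 in diabetic pools, against 11.75 and 11.86 in control pools, a difference of -0.20 (SE 0.11). Both were lower in every diabetic pool, and neither passed the test. With the mean over all probe sets of a gene they came to -0.19 and -0.054.

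Regulators of tract mRNAs around mTOR numbered 13 tested of 16, with 5 higher and 8 lower in diabetic pools and a median difference of -0.014. Mlst8, a subunit of the mTOR complexes, differed by -0.18 (SE 0.12), and Rptor, which brings substrates to the first complex, by 0.13 (SE 0.094). The groups did not overlap for either gene, and Mlst8 came to -0.11 without diabetic replicate 3. Over the whole list the groups did not overlap in 3 of the 13 (23.1%), 2 higher and 1 lower in diabetic pools, against 18.1% of all tested genes. None of the genes in these lists passed an adjusted p of 0.05.

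Ribosomes of mitochondria have their own proteins, and 76 of their genes were tested. The mean was higher in diabetic pools for 33 and lower for 43, with a median difference of -0.025. Groups did not overlap in 19 of the 76 (25.0%), 4 higher and 15 lower in diabetic pools, against the 18.1% of all tested genes given above. Their median residual SD was 0.108, against 0.076 in the cytosolic set. An unadjusted p under 0.05 was found for 4, and none passed the adjusted threshold.

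Mrps23, of the small mitochondrial subunit, was at 11.87, 11.78 and 11.74 in diabetic pools, against 11.36 and 11.39 in control pools. All diabetic pools lay above both controls, with a difference of 0.42 (SE 0.11, adjusted p = 0.999 with limma), which came to 0.13 with the mean over its probe sets. Mrpl42, a mitochondrial ribosomal protein, was at 13.09, 13.02 and 12.89 in diabetic pools, against 13.17 and 13.37 in control pools. All diabetic pools lay below both controls, with a difference of -0.27 (SE 0.10, adjusted p = 0.999 with limma), which came to -0.17 without control replicate 2.

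The tissue matched its label by rod photoreceptor genes, whose 10 measured members summed to 739672 to 815014 signal units in diabetic and 725641 to 817490 in control pools. Other cell types varied between pools. The 8 genes of the pigment epithelium, the layer behind the photoreceptors, summed to 53526 to 80029 in diabetic and 99279 to 145562 in control pools. Of the 7 tested ones, 6 were lower without overlap, against 8.15% of all tested genes, and their median difference was -1.22 over the 7. Skeletal muscle genes, 11 of 12 on the array, ran from 5527 to 80532 in diabetic pools, with the maximum in replicate 3, and from 5833 to 52244 in control pools, with the maximum in replicate 2. The 9 microglia genes summed to 6442 to 7988 in diabetic and 8432 to 9537 in control pools. Of the 4 tested ones, 3 had a lower mean in diabetic pools, 1 of them without overlap, and 1 a higher mean. The 6 melanosome genes ran from 2901 to 22570 in diabetic and 5165 to 19128 in control pools. None of 7 lens genes passed the level filter, and they summed to 1069 to 1529 in diabetic and 911 to 2224 in control pools. The part of these cell types in the differences of Rps10, Rpl39, Rpl7 and Rpsa was not tested, except that without both arrays of high muscle signal Rps10 came to -0.18, Rpl39 to -0.28, Rpl7 to -0.10 and Rpsa to 0.13. Without diabetic replicate 3 and control replicate 2, the 2 pools of high muscle signal, 14 of the 41 genes had a higher mean in diabetic pools, and none was called.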

How the data were processed

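Total RNA of 5 retinal pools, 3 diabetic and 2 control, was measured on Affymetrix arrays. The authors deposited linear signal intensities, with 1 value for each probe set. For the summarization software and background correction, the sources used here name nothing. Each array had a mean of 2500.0 without its lowest and highest values, and medians ran from 634.6 to 714.7. Symbols came from the platform annotation, updated by Entrez ID. Signals were taken as log2(signal + 120.6), the 20th percentile, which understates changes of dim genes. The upper 60% of genes by mean were tested with limma 3.58.1 in R 4.3.3 (lmFit, eBayes with trend, 3 residual degrees of freedom). Only the limma step was run on simulated data, drawn from its own variance model. That simulation does not test the scaling, the choice of probe sets or the quality of the arrays. The number of arrays limits the precision, and the labels do not say whether pools were processed separately.

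Members, lists and tests were chosen with earlier results of these data known. Named genes were a fixed list, the 8 members of smallest p per direction, the 5 of widest and the 5 of narrowest spread, and 2 genes of each related list. Others are said to be picked later. Alternatives covered scaling, pseudocount, filter, probe sets, variance model, array weights, replicate block and arrays left out. The labels do not say that replicate numbers pair the pools, so no block was used in the main test. Plots were made with matplotlib 3.10.9.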

Additional observations from a re-analysis of the deposited data

Results flagged for a closer look

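Diabetic replicate 2 stood above both control pools in control probe sets that no comparison uses. Its 18S ribosomal RNA probe sets had signals of 11744 (3′ end), 7087 (middle) and 11259 (5′ end), against at most 2993, 1949 and 1931 in control pools. These are 3.92, 3.64 and 5.83 times the higher control. The other diabetic pools had 2447 and 3341 at the 3′ end. Its beta-actin 3′ to 5′ ratio was 4.32, against at most 2.71 in control pools. The same pool was the highest of the 5 in 16 of 41 ribosomal protein genes. The part of these values in that count was not tested.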

How the results depend on the processing

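No ribosomal protein gene was called under any of the alternatives, and their smallest adjusted p was 0.809. Over all genes 2 were called with the replicate block and 2 without both arrays of high muscle signal, and from 0 to 1 with single arrays left out, the 1 call coming without diabetic replicate 2 and without diabetic replicate 3. The number of ribosomal protein genes with a higher mean in diabetic pools was 31 after centring on medians, with a median difference of 0.042. It ran from 13 without diabetic replicate 2 to 27 without control replicate 1. Their residual SD was 0.049 with the replicate block. Deviations of replicates with the same number had a correlation of -0.014 across genes for the first number. The labels do not say that the number pairs the pools, and this correlation cannot tell whether it does. The block result is therefore given only as an alternative. Of 767 values of 43 named genes under alternatives, 718 kept their sign and 49 turned, none of them called in either. With array weights Rpl13a came to -0.0025, Rps27 to 0.048 and Rps6 to -0.0084. Centring gave Rpl10a 0.033, Rpl22 0.035, Rpl8 0.0073, Rps29 0.011 and Fau 0.021. The mean over probe sets gave Rpl13a -0.10, Rpl41 -0.058, Rps29 0.023 and Eif2s2 -0.022. The replicate block gave Rpl12 -0.045, Rps3a1 -0.00018 and Rps4l 0.14. Without probe sets ending in _s_at and _x_at Rpl41 was at -0.21. Without both arrays of high muscle signal Rpl12 came to -0.16, Rpl37 to -0.027, Rpl38 to -0.0095, Rpl4 to -0.018, Rpl7a to -0.012, Rplp0 to -0.0024, Rps4x to -0.068, Eif3c to -0.0060, Rps3a1 to -0.037 and Rps4l to 0.12. With single arrays left out, values that changed sign ran from -0.043 to 0.024 for Rpl10a, -0.14 to 0.017 for Rpl11, -0.048 to 0.24 for Rpl12, -0.029 to 0.078 for Rpl13a, -0.053 to 0.25 for Rpl14, -0.083 to 0.067 for Rpl22, -0.045 to 0.29 for Rpl37, -0.018 to 0.063 for Rpl4, -0.011 to 0.076 for Rplp2, -0.47 to 0.17 for Rps27, -0.083 to 0.018 for Rps29, -0.012 to 0.062 for Rps3a1, -0.25 to 0.14 for Rps4l and -0.048 to 0.19 for Rps4x. The causes were not tested. Signal over background is unknown, since no detection calls were used, and it limits the dim genes most.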
